A study of Mus musculus with 36 samples.

Results

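The genes described here are 8 that mark the resident macrophages of the liver, the Kupffer cells: Clec4f, Timd4, Cd163, Vsig4, Marco, Cd5l, Folr2 and Id3. They were chosen by gene symbol, with no measured value used in the rule but with earlier results of these data known. All 8 of the 8 were found among the 49315 genes listed and passed the filter on low values. PolyA RNA was measured by sequencing in liver samples of 36 male mice aged 11 to 12 weeks. All mice belonged to a line in which residue 441 of the nuclear receptor LXRalpha had been changed by CRISPR editing from tryptophan (W) to phenylalanine (F), so that W/W mice carried the normal residue on both alleles, W/F mice carried the change on 1 allele and F/F mice carried it on both. The labels limit the change to no cell type, so liver cells other than macrophages carried it too. Mice of each genotype ate chow, or ate a diet that promotes steatohepatitis (MASH diet, Teklad TD.96121) for 4 weeks. For the last 2 weeks the mice on the MASH diet received either vehicle or T0901317, a synthetic agonist of both LXR receptors, daily by mouth at 10 mg/kg. Each of the 9 groups held 4 mice. The chow mice were a separate cohort, so diet and cohort cannot be told apart.

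Kupffer cells settle in the liver sinusoids before birth and normally renew themselves there. Signals from their neighbours, sinusoidal endothelial cells, stellate cells and hepatocytes, are known to impose their identity, and LXRalpha is one of the transcription factors that maintain it. When resident cells are lost, monocytes from the blood can enter the liver, and the cells that replace the residents are known to gain Clec4f early and Timd4 late. Clec4f is a lectin receptor found almost only on Kupffer cells. Timd4 binds phosphatidylserine on dying cells, Cd163 takes up haemoglobin bound to haptoglobin, Vsig4 binds complement fragments and Marco binds bacteria and particles. Cd5l is secreted by macrophages and is a known LXR target gene, Folr2 is a folate receptor, and Id3 is a transcriptional regulator that Kupffer cells need but that many other liver cells also make.

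Depth recovered from the spacing of the lowest values was 18.1 to 35.8 (median 23.9) in units of 1000000 reads per library. No libraries held identical values. The point change leaves the transcript of LXRalpha in place, and Nr1h3, which encodes it, had group means of 86.8 to 108 TPM (a gene's share of the transcripts in a library, scaled to sum to 1000000), so its level does not check the genotype labels. The hepatocyte gene Alb, a marker of the labelled tissue, had group means of 19350 to 57810 TPM. Values of bulk liver cannot tell fewer cells of a type from less RNA per cell. One W/F library, replicate 2 with T0901317, stood apart: it was the highest of its 4 for 5 of the 8 genes, and its 13 general macrophage genes summed to 2238 TPM against 311.5 to 441.3 TPM in the other W/F mice with T0901317. One W/W vehicle library held the pancreatic genes Prss2 at 37.2 TPM and Pnlip at 29.0 TPM.

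The genes lie on 7 chromosomes of GRCm38, and the intervals are those of GENCODE M21. Clec4f (ENSMUSG00000014542) spans chr6:83644542-83656187 on the minus strand and Cd163 (ENSMUSG00000008845) spans chr6:124304656-124330527 on the plus strand. Timd4 (ENSMUSG00000055546) spans chr11:46810800-46844332 on the plus strand and Cd5l (ENSMUSG00000015854) spans chr3:87357881-87371073 on the plus strand. Vsig4 (ENSMUSG00000044206) spans chrX:96247203-96293438 on the minus strand and Marco (ENSMUSG00000026390) spans chr1:120474538-120505024 on the minus strand. Folr2 (ENSMUSG00000032725) spans chr7:101839988-101857194 on the minus strand and Id3 (ENSMUSG00000007872) spans chr4:136143497-136145755 on the plus strand. An antisense gene, Gm10602, covers 63.1% of the exon bases of Folr2. The strand setting of the counting is not given in the sources used here. How reads in the shared bases were counted is thus unknown, and the values of Folr2 are uncertain. The other 7 genes share no exon base with another gene.

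The sequences just before the transcription starts of 4 of these genes are shown because these 4 genes show the different patterns across groups described further on. They are RefSeq sequences of GRCm38.p6, printed 5′ to 3′ along the gene. Capitals mark AGGTCA, the half-site that LXR and other nuclear receptors read, and GGAAGT, a core motif read by PU.1 and other ETS factors of myeloid cells. Both strands were searched for each motif. The Timd4 window is chr11:46810549-46810798 on the plus strand, the Cd163 window chr6:124304401-124304650 on the plus strand, the Cd5l window chr3:87357631-87357880 on the plus strand, and the Clec4f stretch chr6:83656188-83656366 on the minus strand.
Timd4: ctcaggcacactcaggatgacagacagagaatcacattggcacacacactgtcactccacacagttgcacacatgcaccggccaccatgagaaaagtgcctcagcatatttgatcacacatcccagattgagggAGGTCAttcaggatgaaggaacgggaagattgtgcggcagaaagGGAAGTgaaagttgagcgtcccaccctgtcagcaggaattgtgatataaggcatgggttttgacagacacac
Cd163: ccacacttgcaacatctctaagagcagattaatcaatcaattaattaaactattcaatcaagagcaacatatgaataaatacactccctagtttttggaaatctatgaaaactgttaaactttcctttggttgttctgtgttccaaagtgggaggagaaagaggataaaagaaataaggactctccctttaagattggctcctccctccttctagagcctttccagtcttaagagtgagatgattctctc
Cd5l: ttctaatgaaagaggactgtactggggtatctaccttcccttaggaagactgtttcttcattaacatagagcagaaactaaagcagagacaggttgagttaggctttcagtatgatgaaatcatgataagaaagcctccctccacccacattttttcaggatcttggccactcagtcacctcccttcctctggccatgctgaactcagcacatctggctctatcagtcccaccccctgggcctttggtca
Clec4f: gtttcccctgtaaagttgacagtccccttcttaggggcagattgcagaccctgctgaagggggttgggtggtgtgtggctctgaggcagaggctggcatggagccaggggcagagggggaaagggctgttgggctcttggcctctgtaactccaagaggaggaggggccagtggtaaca
Over the 250 bases before each RefSeq start, AGGTCA was found for 2 of the 8 genes, Clec4f and Timd4, and in 14.0% of 32851 windows of the same length. GGAAGT was found for 4 of the 8 genes, Clec4f, Timd4, Vsig4 and Folr2, and in 19.7% of the windows. Folr2 has 2 RefSeq windows, which hold 2 and 0 GGAAGT matches, and a match in either was counted for the gene. Both Clec4f matches lie downstream of the stretch printed, between the M21 start and the RefSeq start. A pair of AGGTCA half-sites 4 bases apart, the spacing known for LXR, was in 0 of the 9 windows of the 8 genes and in 0.0152% of all windows. A match describes letters in a short window, and distal enhancers were not searched.

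In mice with the normal receptor all 8 genes were measurable, and their levels per length differed widely. On chow the W/W means were 57.8 TPM for Cd5l, 49.1 for Clec4f, 46.2 for Id3, 15.6 for Vsig4, 8.70 for Marco, 4.35 for Timd4, 4.22 for Folr2 and 3.30 for Cd163. None of the 8 was called with the MASH diet and vehicle against chow in W/W mice, where 12.9% of the 16638 genes tested were called (limma on log2(TPM + 1), adjusted p under 0.05). None was called for T0901317 against vehicle in W/W mice either, where 10.8% of all genes were called. Of the 8 genes, 1 (Folr2) was called in the W/W compound comparison and 2 (Clec4f and Vsig4, both higher) in the W/W diet comparison when only the libraries compared were fitted. Without W/W vehicle replicate 1, Id3 was called higher with the diet (0.95).

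Among F/F mice 7 of the 8 genes were lower than in W/W mice on chow, and the same number were lower on the MASH diet with vehicle. On chow Clec4f, Timd4, Cd163, Vsig4, Marco, Cd5l and Folr2 fell and Id3 was not called (0.60; called at 0.77 without W/W chow replicate 4). The share of all genes called was 46.7%, most of them higher in F/F (43.0% higher, 3.65% lower). On the MASH diet with vehicle those 7 fell and Id3 rose, where 76.5% of all genes were called (69.3% higher, 7.13% lower). The median log2 difference of the 8 genes was -1.90 on chow and -2.52 on the MASH diet, beside 0.29 and 0.70 over all genes tested. Rescaling the libraries to a common median moved the all-gene median of 0.70 to 0.12. It left 0 of the 8 higher and 7 lower on the MASH diet, where 59.1% of all genes were then called. With T0901317, 4 of the 8 were lower in F/F than in W/W mice and 1 was higher (0 higher and 5 lower after rescaling). There 63.2% of all genes were called (47.9% after rescaling). Those 4 were Clec4f, Timd4, Cd163 and Folr2. Vsig4, Marco and Cd5l were not called there, and their 95% intervals were -1.15 to 0.11, -0.57 to 1.84 and -0.97 to 0.59 on the log2 scale.

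One changed allele left the 8 genes uncalled on chow and split them on the MASH diet. Against W/W mice on chow none of the 8 was called, where only 0.487% of all genes were. The missing calls do not show equal levels. Mean Cd5l was 29.2 TPM in W/F and 57.8 TPM in W/W chow mice (log2 -1.053, interval -1.835 to -0.272). For Timd4 every W/F chow mouse lay below every W/W chow mouse (means 2.72 and 4.35 TPM, log2 -0.535, interval -1.008 to -0.061). These intervals are not adjusted for the number of genes. Only Cd163 leaned higher in W/F chow mice (0.287). On the MASH diet with vehicle 5 were called. Clec4f, Timd4 and Cd163 fell and Cd5l and Id3 rose (1 higher and 4 lower after rescaling). Of all genes, 68.5% were called (53% after rescaling). With T0901317 only Cd163 was called, lower in W/F (1 higher and 2 lower after rescaling). There 9.88% of all genes were called (14.2% after rescaling). Without the W/F library that stood apart, Clec4f, Cd5l and Folr2 were also called lower there, at -0.88, -1.09 and -1.11, giving 4 of 8. Leaving out W/W replicate 2 or W/F replicate 4 of the T0901317 mice made 2 of the 8 called.

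Between the MASH diet with vehicle and chow, the genes called differed between the 3 genotypes, at counts near or below the share of all genes. Of the 8 genes, 5 were called against chow in W/F mice (Vsig4, Cd5l and Id3 rose, Timd4 and Cd163 fell). Of all genes, 61.0% were called (52.4% higher, 8.53% lower). In F/F mice 3 were called (Clec4f and Vsig4 fell, Id3 rose). After rescaling 0 were higher and 2 lower. Of all genes, 55.8% were called (46.5% higher, 9.27% lower), and 47.7% after rescaling. F/F chow means were already 0.0369 TPM for Timd4, 0.141 for Cd163, 1.11 for Marco, 1.14 for Folr2 and 1.655 for Cd5l. That left little room for a fall on the log2(TPM + 1) scale, so their missing calls do not show a lack of response. The difference between the W/F and W/W diet responses was called for 4 of the 8 (Timd4, Cd163, Cd5l and Id3). After rescaling 1 was higher and 3 lower. Of all genes, 54.6% were called (39.8% after rescaling). The difference between the F/F and W/W diet responses was called for 2 of the 8 (Clec4f and Vsig4), where 46.0% of all genes were called. These comparisons share the W/W mice.

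With T0901317 some of the genes were higher in F/F mice and others were not called. Against vehicle, Clec4f, Vsig4 and Cd5l rose in F/F mice, making 3 of the 8, where 35.1% of all genes were called (3.95% higher, 31.2% lower). In W/F mice 5 of the 8 were called: Clec4f, Timd4 and Cd163 rose and Cd5l and Id3 fell, where 65.9% of all genes were called (6.59% higher, 59.3% lower). The F/F response exceeded the W/W response for 4 of the 8 (Clec4f, Vsig4, Marco and Cd5l), where 30.4% of all genes were called. The W/F response differed from the W/W response for 3 of the 8 (Timd4 and Cd163 more positive, Cd5l more negative), where 58.5% of all genes were called. Those 2 comparisons share the W/W mice.

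The diet with T0901317 was also set against chow, which differ in diet, compound and cohort at once. In F/F mice 4 of the 8 were higher (Clec4f, Vsig4, Cd5l and Folr2), where 37.4% of all genes were called. In W/F mice Timd4, Vsig4 and Cd5l were higher and Cd163 lower, where 29.7% of all genes were called. None of those W/F calls held when only the libraries compared were fitted, and without W/F replicate 2, 3 or 4 with T0901317, or replicate 1 on chow, the count was 2, 2, 7 and 2. In W/W mice 3 of the 8 were higher (Clec4f, Cd5l and Folr2), where 23.1% of all genes were called. After rescaling 4 of the 8 were higher and 1 lower, where 29.3% of all genes were called. The F/F call of Folr2 was lost without F/F chow replicate 1 or 3 or T0901317 replicate 4, and the W/W call of Cd5l without W/W chow replicate 1 or T0901317 replicate 2 or 3.

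**Figure D1:**
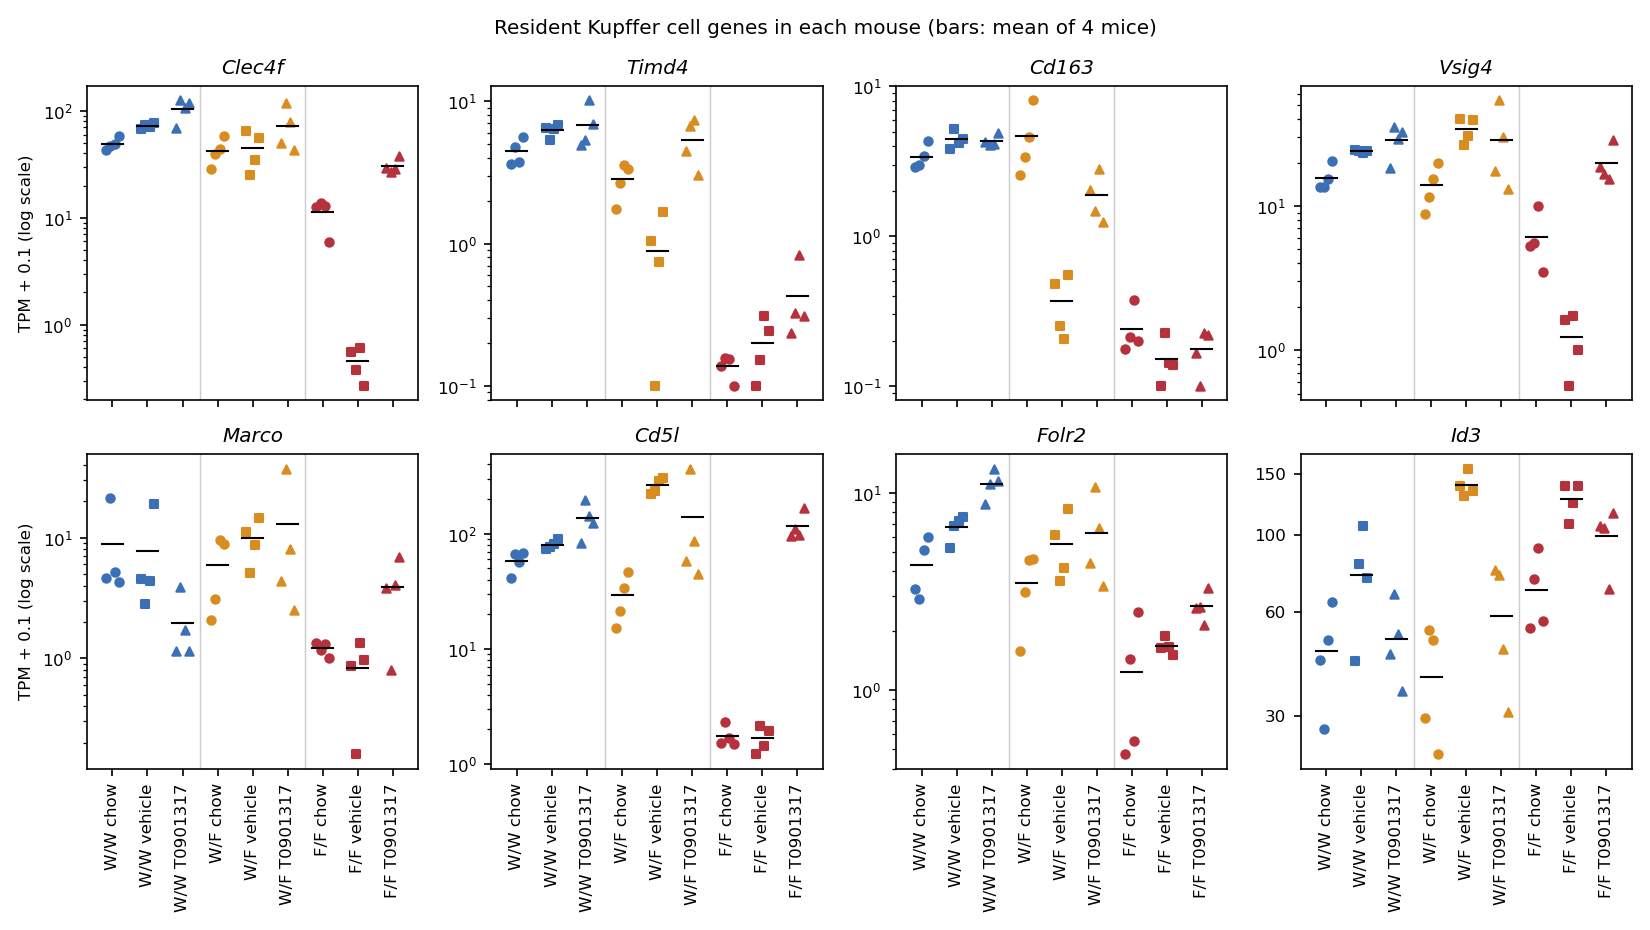
TPM + 0.1 (log axis) of each of the 8 genes in each mouse, by group, with bars for the mean of 4 mice (TPM + 0.1); squares are vehicle, triangles T0901317 and circles chow. Clec4f in the 4 F/F vehicle mice lies between 0.168 and 0.508 TPM, below every other group, and in F/F mice with T0901317 between 26.6 and 37.3 TPM.

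Clec4f, the most restricted Kupffer cell marker, was lower in F/F than in W/W mice under every treatment. Across W/W mice it was 42.5, 46.6, 49.2 and 58.1 TPM on chow, 68.0, 73.4, 70.3 and 77.6 TPM on the MASH diet with vehicle, and 69.5, 125, 106 and 118 TPM with T0901317. Across F/F mice it was 12.4, 13.7, 12.9 and 5.84 TPM on chow, 0.460, 0.280, 0.508 and 0.168 TPM with vehicle, and 29.3, 26.6, 28.2 and 37.3 TPM with T0901317. No F/F mouse reached the lowest W/W mouse of its own treatment, and the 3 F/F groups did not overlap one another. Against W/W the difference was -2.09 on chow (SE 0.27, adjusted p = 6.02e-07), a mean 4.38-fold lower, and -5.77 with vehicle (SE 0.27, adjusted p = 8.95e-17). The F/F vehicle mice held 31 Clec4f reads in all against 7092 in W/W vehicle mice, a ratio of 207 per depth (95% exact interval 146 to 305, counting error only). Within F/F mice Clec4f was 31.7-fold lower on the diet with vehicle than on chow (log2 -3.12, SE 0.27, adjusted p = 2.22e-10). T0901317 then raised it 85.8-fold over vehicle (log2 4.53, SE 0.27, adjusted p = 5.31e-13), and the level stayed 3.45-fold under W/W mice with T0901317 (log2 -1.73, adjusted p = 3.42e-06).

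Clec4f of W/F mice overlapped that of W/W mice on chow and spread widely on the diet. The W/F values were 28.4, 39.5, 44.1 and 57.7 TPM on chow, 64.6, 25.0, 34.9 and 55.4 TPM with vehicle, and 50.0, 117, 77.8 and 43.1 TPM with T0901317. All 4 W/F vehicle mice lay below the W/W vehicle mice (log2 -0.76, SE 0.27, adjusted p = 0.0145), and without W/F replicate 2 the difference was -0.52 and not called. The rise with T0901317 in W/F mice (log2 0.65, adjusted p = 0.0371) had overlapping groups, and it was not called without the library that stood apart (0.38, adjusted p = 0.217), without W/F vehicle replicate 2 (0.41) or 3 (0.56), or without T0901317 replicate 3 (0.58).

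Timd4, the phosphatidylserine receptor of long-resident cells, was near the limit of detection in F/F mice under every treatment. W/W mice held 3.55, 4.67, 3.65 and 5.52 TPM on chow, 6.36, 5.26, 6.26 and 6.74 TPM with vehicle, and 4.82, 5.28, 10.1 and 6.84 TPM with T0901317. F/F mice held 0.0378, 0.0563, 0.0535 and 0 TPM on chow, 0, 0.0530, 0.210 and 0.143 TPM with vehicle, and 0.134, 0.226, 0.730 and 0.212 TPM with T0901317. Every F/F mouse lay below every W/W mouse. The 4 F/F chow libraries held 3 Timd4 reads in all against 339 in W/W, a ratio of 121 (95% exact interval 41.0 to 589), with 8 against 531 reads for vehicle (60.5, interval 30.5 to 141) and 27 against 606 for T0901317 (21.8, interval 14.9 to 33.4). On the log2(TPM + 1) scale, which understates the change of genes this low, the 3 differences were -2.35, -2.70 and -2.52 (adjusted p = 4.88e-09, 1.21e-11 and 4.6e-10). T0901317 against vehicle was not called in F/F mice (0.25, SE 0.23, adjusted p = 0.41), where the means were 0.101 TPM with vehicle and 0.325 TPM with T0901317.

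Timd4 of W/F mice was lowest on the diet with vehicle. It was 1.65, 2.55, 3.47 and 3.22 TPM on chow, 0.949, 0, 0.642 and 1.56 TPM with vehicle, and 4.36, 6.55, 7.27 and 2.93 TPM with T0901317. The 3 groups did not overlap, apart from the T0901317 and chow mice. The fall from chow to diet was 3.46-fold (log2 -1.11, SE 0.23, adjusted p = 0.000133) and the rise from vehicle to T0901317 was 6.70-fold (log2 1.83, SE 0.23, adjusted p = 7.94e-08). The difference between F/F and W/F vehicle mice was not called (-0.62, adjusted p = 0.0531), and it was called with a pseudocount of 0.1 (-1.70) and without W/F vehicle replicate 2 (-0.88).

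Cd163, the haemoglobin scavenger receptor, was likewise low in every F/F group and in W/F vehicle mice. Its W/W values were 2.78, 2.87, 3.31 and 4.24 TPM on chow, 3.72, 5.12, 4.11 and 4.35 TPM with vehicle, and 4.17, 3.94, 4.00 and 4.82 TPM with T0901317. In F/F mice the highest of all 12 values was 0.277 TPM, and 1 vehicle and 1 T0901317 mouse were at 0. W/F mice were at 2.46, 3.26, 4.52 and 7.98 TPM on chow, 0.378, 0.151, 0.107 and 0.451 TPM with vehicle, and 1.94, 1.36, 2.72 and 1.15 TPM with T0901317. The W/F vehicle mice lay below all other W/F mice, and the T0901317 mice overlapped only the lowest chow mouse. In W/F mice Cd163 was 16.8-fold lower on the diet with vehicle than on chow (log2 -2.04, SE 0.19, adjusted p = 9.95e-11). T0901317 raised it 6.60-fold over vehicle (log2 1.11, SE 0.19, adjusted p = 5.78e-06). It stayed 2.36-fold under W/W mice with T0901317 (log2 -0.94, adjusted p = 0.000753). In reads, W/W exceeded F/F 24.5-fold on chow (interval 16.8 to 37.1), 85.5-fold with vehicle (46.3 to 179) and 57.4-fold with T0901317 (36.2 to 97.3). F/F and W/F vehicle mice differed by -0.27 (adjusted p = 0.325), and by -1.24 with a pseudocount of 0.1, where it was called.

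Vsig4, the complement receptor, was also lowest in F/F vehicle mice. The W/W level was 13.4, 13.4, 15.2 and 20.3 TPM on chow, 24.5, 24.0, 23.3 and 23.9 TPM with vehicle, and 18.3, 35.1, 29.3 and 32.4 TPM with T0901317. Its F/F values were 5.21, 5.44, 9.88 and 3.36 TPM on chow, 1.53, 0.465, 1.61 and 0.906 TPM with vehicle, and 18.6, 16.7, 15.4 and 28.8 TPM with T0901317. The F/F vehicle mice lay below all others. The F/F mice with T0901317 overlapped the W/W mice with T0901317, but their values of 16.7 and 15.4 TPM lay below all of those. The F/F difference from W/W was -1.31 on chow (SE 0.31, adjusted p = 0.00104), -3.59 with vehicle (SE 0.31, adjusted p = 1.21e-11) and -0.52 with T0901317 (adjusted p = 0.146, called at -0.93 after rescaling). In F/F mice T0901317 raised Vsig4 17.6-fold over vehicle (log2 3.29, SE 0.31, adjusted p = 4.94e-09). In W/F mice it was 8.72 to 19.7 TPM on chow, 26.2 to 39.8 TPM with vehicle and 13.1 to 54.1 TPM with T0901317, and the rise from chow to diet was called (log2 1.28, adjusted p = 0.000662). T0901317 against vehicle in W/F mice was -0.42 and not called, and -0.78 and called without the library that stood apart.

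Marco, the class A scavenger receptor, was the noisiest of the 8. The 3 W/W groups held 4.49, 21.1, 5.05 and 4.15 TPM on chow, 4.39, 2.73, 4.29 and 19.0 TPM with vehicle, and 1.06, 3.76, 1.63 and 1.06 TPM with T0901317. The F/F groups held 1.24, 1.08, 1.21 and 0.902 TPM on chow, 0.768, 0.0598, 1.24 and 0.860 TPM with vehicle, and 3.75, 0.700, 3.94 and 6.75 TPM with T0901317. One W/W mouse on chow and 1 with vehicle stood well above the others of their groups. F/F mice were lower than W/W on chow (log2 -1.90, SE 0.59, adjusted p = 0.00965) and with vehicle (log2 -2.02, SE 0.59, adjusted p = 0.00274), and the chow difference was -1.40 and not called without W/W replicate 2. T0901317 against vehicle in F/F mice was 1.33 (SE 0.59, adjusted p = 0.0776), and was called at 1.76 without F/F replicate 2 of the T0901317 mice. W/F mice held 1.99 to 9.51 TPM on chow, 5.01 to 14.5 TPM with vehicle and 2.42 to 37.1 TPM with T0901317.

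Cd5l, the secreted scavenger protein, was almost absent in F/F mice without agonist and near the W/W level with it. Levels in W/W mice were 41.2, 66.1, 56.3 and 67.5 TPM on chow, 73.5, 76.2, 81.6 and 90.9 TPM with vehicle, and 83.2, 195, 143 and 125 TPM with T0901317. Levels in F/F mice were 1.41, 2.22, 1.60 and 1.39 TPM on chow, 1.12, 2.04, 1.34 and 1.83 TPM with vehicle, and 95.7, 109, 96.8 and 168 TPM with T0901317. The 8 F/F mice without agonist lay far below every other mouse, and the 4 with agonist lay within the range of the W/W mice. The F/F difference from W/W was -4.45 on chow (SE 0.38, adjusted p = 4.9e-10), -4.99 with vehicle (SE 0.38, adjusted p = 1.17e-12) and -0.19 with T0901317 (adjusted p = 0.68). T0901317 raised it 74.3-fold over vehicle in F/F mice (log2 5.50, SE 0.38, adjusted p = 9.51e-12).

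Cd5l of W/F mice was highest on the diet with vehicle. They held 15.2, 21.4, 33.7 and 46.6 TPM on chow, 223, 235, 285 and 308 TPM with vehicle, and 57.8, 367, 86.9 and 44.9 TPM with T0901317. All 4 vehicle mice exceeded every W/W mouse. The rise over chow was 8.99-fold (log2 3.23, SE 0.38, adjusted p = 1.82e-08) and the level was 3.26-fold over W/W vehicle mice (log2 1.69, SE 0.38, adjusted p = 0.00028). With T0901317 it fell (log2 -1.44, SE 0.38, adjusted p = 0.00159), by 2.08 without the library that stood apart. F/F and W/F mice thus differed by -6.68 with vehicle (adjusted p = 9.79e-14) and by 0.25 with T0901317 (adjusted p = 0.583). Without that library F/F exceeded W/F mice with T0901317 by 0.90, which was called.

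Folr2, the folate receptor whose exons overlap those of Gm10602, ran lower in F/F mice at smaller size. W/W values were 3.16, 2.81, 5.05 and 5.85 TPM on chow, 5.14, 6.68, 7.10 and 7.50 TPM with vehicle, and 8.66, 11.0, 13.2 and 11.4 TPM with T0901317. F/F values were 0.372, 1.34, 0.451 and 2.39 TPM on chow, 1.54, 1.79, 1.55 and 1.41 TPM with vehicle, and 2.5, 2.54, 2.05 and 3.22 TPM with T0901317. The F/F and W/W mice did not overlap within any treatment. The differences were -1.34 (adjusted p = 0.000385), -1.55 (adjusted p = 1.37e-05) and -1.75 (adjusted p = 5.58e-06), each with SE 0.29. All 4 F/F mice with T0901317 exceeded the 4 with vehicle, a difference of 0.47 that was not called (adjusted p = 0.199). W/F mice held 1.47 to 4.52 TPM on chow, 3.50 to 8.17 TPM with vehicle and 3.26 to 10.6 TPM with T0901317.

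Id3 did not share the fall of the other 7. Among W/W mice it was 43.5, 27.5, 49.8 and 63.9 TPM on chow, 43.1, 82.1, 106 and 74.9 TPM with vehicle, and 45.2, 67.6, 51.7 and 35.4 TPM with T0901317. Among F/F mice Id3 was 53.9, 74.5, 91.7 and 56.4 TPM on chow, 138, 108, 123 and 138 TPM with vehicle, and 106, 104, 69.9 and 116 TPM with T0901317. The F/F vehicle mice lay above all W/W vehicle mice. The rise was 0.78 (SE 0.29, adjusted p = 0.0156), and it was not called after rescaling (0.06, adjusted p = 0.873) or without W/W vehicle replicate 1 (0.54, adjusted p = 0.103). W/F mice with vehicle held 129 to 155 TPM, and the rise over W/F chow of 1.89 (SE 0.29, adjusted p = 1.67e-06) was still called after rescaling, as was the fall with T0901317 (-1.33, adjusted p = 0.000186).

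**Figure D2:**
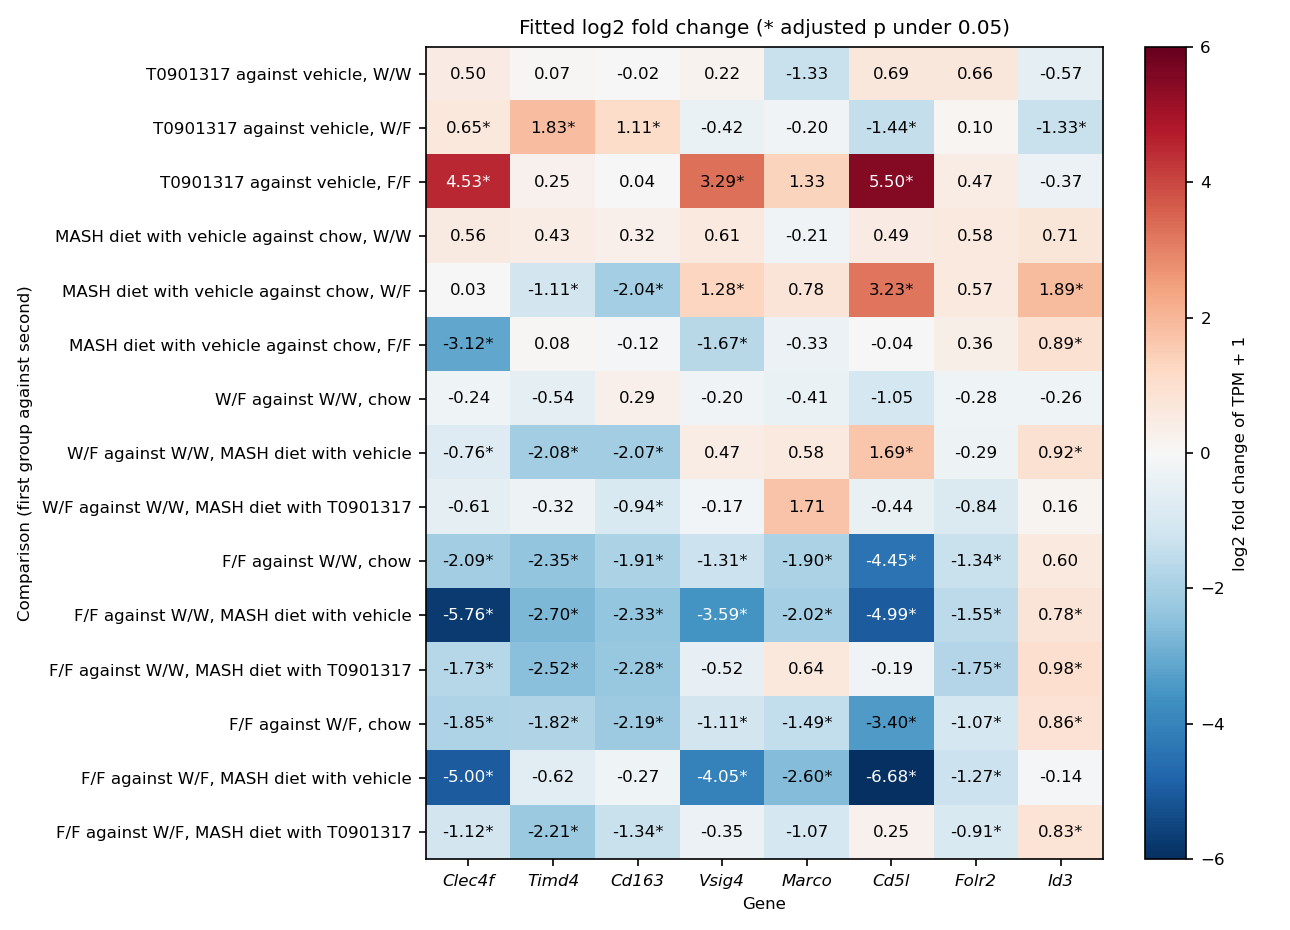
Fitted log2 fold changes of TPM + 1 for the 8 genes (columns) in 15 comparisons (lines, first group against second), red higher and blue lower, with an asterisk for an adjusted p under 0.05. Clec4f, Vsig4 and Cd5l are red for T0901317 against vehicle in F/F mice (4.53, 3.29 and 5.50), where Timd4 and Cd163 are pale (0.25 and 0.04). Those 2 genes lay under 1 TPM in all these mice, where this scale understates changes.

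Set directly against W/F mice on chow, F/F mice were lower in 7 of the 8 genes and higher in Id3. After rescaling 0 were higher and 7 lower. On chow 41.4% of all genes were called (29.1% after rescaling). The Marco call there (-1.49, adjusted p = 0.043) was lost without any 1 of the 4 F/F mice and without W/F replicate 3 or 4, and the Id3 call (0.86) without F/F replicate 3 or W/F replicate 1 or 4. With vehicle 5 of the 8 were lower (Clec4f, Vsig4, Marco, Cd5l and Folr2), where 21.3% of all genes were called. With T0901317 Clec4f, Timd4, Cd163 and Folr2 were lower and Id3 higher (0 higher and 5 lower after rescaling). Of all genes, 62.6% were called (40.1% after rescaling). There the Folr2 call was lost without W/F replicate 2 (-0.64), and without W/F replicate 4 that of Id3 was lost (0.56) and Marco was called (-1.53). The vehicle comparison called no difference for Timd4 and Cd163, which were low in both genotypes, and the T0901317 comparison called both.

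Ordered by group mean, F/F vehicle mice were lowest for Clec4f, Vsig4, Marco, Cd5l and Cd163, and F/F chow mice for Timd4 and Folr2. Id3 was lowest in W/F chow mice. Most neighbours in these orders overlapped: of the 8 steps between neighbouring groups, 2 were free of overlap for Clec4f, Timd4, Cd163 and Folr2, 3 for Cd5l, 1 for Vsig4 and 0 for Marco and Id3. W/W mice with T0901317 ranked first for Clec4f, Timd4 and Folr2, and W/F vehicle mice ranked first for Vsig4, Cd5l and Id3.

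Of 21 other genes known from resident Kupffer cells, 20 passed the filter, and they split. In F/F against W/W mice on the MASH diet with vehicle 6 rose and 6 fell (4 rose and 9 fell after rescaling), with a median of 0.27. Of all genes, 69.3% were called higher and 7.13% lower there. Fcna, a ficolin of Kupffer cells, fell most, from 45.9 ± 9.42 to 8.17 ± 1.29 TPM (SD, n = 4; log2 -2.34, adjusted p = 1.22e-11). Vcam1, an adhesion molecule also made by endothelium, rose most, from 3.24 ± 0.86 to 26.3 ± 3.46 TPM (log2 2.70, adjusted p = 3.00e-09). C6, a complement component that hepatocytes also make, fell from 147 ± 19.8 to 81.3 ± 14.3 TPM, and Hpgd, a prostaglandin-degrading enzyme, fell from 137 ± 8.16 to 87.9 ± 12.4 TPM. On chow 3 of the 20 fell in F/F mice and 2 rose, where 3.65% of all genes fell and 43% rose. The 3 were Fcna (-0.97), the potassium channel Kcna2 (-0.57) and Pcolce2 (-0.71), and the 2 were Vcam1 (1.74) and the lectin Cd207 (2.77).

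In W/F against W/W mice with vehicle 10 of the 20 rose and 4 fell (9 and 8 after rescaling). Of all genes, 61.6% were called higher and 6.83% lower there. Clec1b, a platelet and myeloid lectin receptor, rose from 3.72 ± 0.64 to 11.5 ± 0.44 TPM (log2 1.42, adjusted p = 2.56e-06). In F/F vehicle mice Clec1b was at 2.89 ± 0.57 TPM. T0901317 raised 5 of the 20 over vehicle in F/F mice and lowered none at this threshold (6 and 0 after rescaling). Those 5 were Clec1b, Il18bp, Fcna, Cd207 and Kcna2. Of all genes, 3.95% were called higher and 31.2% lower there. Clec1b went to 9.92 ± 0.92 TPM (log2 1.495, adjusted p = 2.02e-05) and Fcna to 24.6 ± 6.10 TPM (log2 1.46, adjusted p = 5.36e-06). Kcna2, Pcolce2, Cd207, Clec1b and Il18bp were named after their values were seen.

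Genes that all macrophages share were higher than in W/W mice in both W/F and F/F vehicle mice, where 3 and 7 of the 8 resident genes were lower. The 13 general macrophage genes, among them the lysozyme gene Lyz2 and the protease gene Ctss, had mean sums of 303 TPM (W/W chow), 418 (W/W vehicle), 6012 (W/F vehicle) and 7406 (F/F vehicle). All 13 of 13 rose in F/F against W/W vehicle mice (median 3.16) and all 13 of 13 in W/F (median 2.86). Of all genes, 69.3% and 61.6% were called higher in these 2 comparisons, with medians of 0.70 and 0.52. On chow 11 of 13 rose in F/F (median 1.36), to a sum of 1262 TPM, where 43% of all genes were called higher. The summed level ranged from 6213 to 7965 TPM in F/F vehicle mice and from 327.4 to 620.8 TPM in W/W vehicle mice, and no gene of the list was at 0. Mertk, which clears dying cells, moved least, from 10.2 ± 1.89 to 27.6 ± 4.13 TPM.

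The 12 genes of recruited and lipid-associated macrophages moved in the same direction and further. All 12 of 12 rose with vehicle in F/F (median 4.81) and in W/F mice (median 4.74), where 69.3% and 61.6% of all genes were called higher. Their summed means with vehicle were 108 TPM (W/W), 3521 TPM (W/F) and 6384 TPM (F/F). Gpnmb, a glycoprotein of lipid-laden macrophages, went from 1.18 ± 1.25 to 519 ± 59.2 TPM in F/F and to 435 ± 136 TPM in W/F mice. Spp1, encoding osteopontin, which bile ducts also make, went from 48.7 ± 4.53 to 3174 ± 303 TPM in F/F mice, and the monocyte gene Ly6c2 from 0.52 ± 0.27 to 8.30 ± 7.14 TPM. With T0901317 against vehicle 6 of the 13 general genes fell in F/F mice (median -0.77; 2 of 13 after rescaling, median -0.54), where 31.2% of all genes fell. In W/F mice 13 of 13 fell (median -2.41; 13 of 13 after rescaling), where 59.3% of all genes fell. Stellate cell, bile duct and neutrophil genes rose beside them in F/F vehicle mice (7 of 7, 5 of 5 and 5 of 5). After rescaling the counts were 6, 5 and 5. Of the hepatocyte genes 4 of 5 fell (5 of 5 after rescaling). Of all genes, 69.3% were called higher and 7.13% lower in this comparison. Col1a1, a collagen gene of myofibroblasts, went from 3.89 ± 3.05 to 269 ± 20 TPM, the bile duct gene Epcam from 2.31 ± 0.45 to 58.8 ± 6.01 TPM, and Alb, encoding albumin, from 49750 ± 8760 to 19350 ± 1640 TPM. The neutrophil genes summed to 4.39 to 10.4 TPM in W/W and 152 to 441 TPM in F/F vehicle mice. Of the T and NK cell genes 2 of 3 tested rose (0 after rescaling), of the B cell genes 1 of 3 (1 higher and 1 lower after rescaling), and of the genes of other organs 2 of 2, the globin genes Hbb-bs and Hba-a1 (0 after rescaling). The part of these other cells in the values of the 8 genes was not tested.

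**Figure D3:**
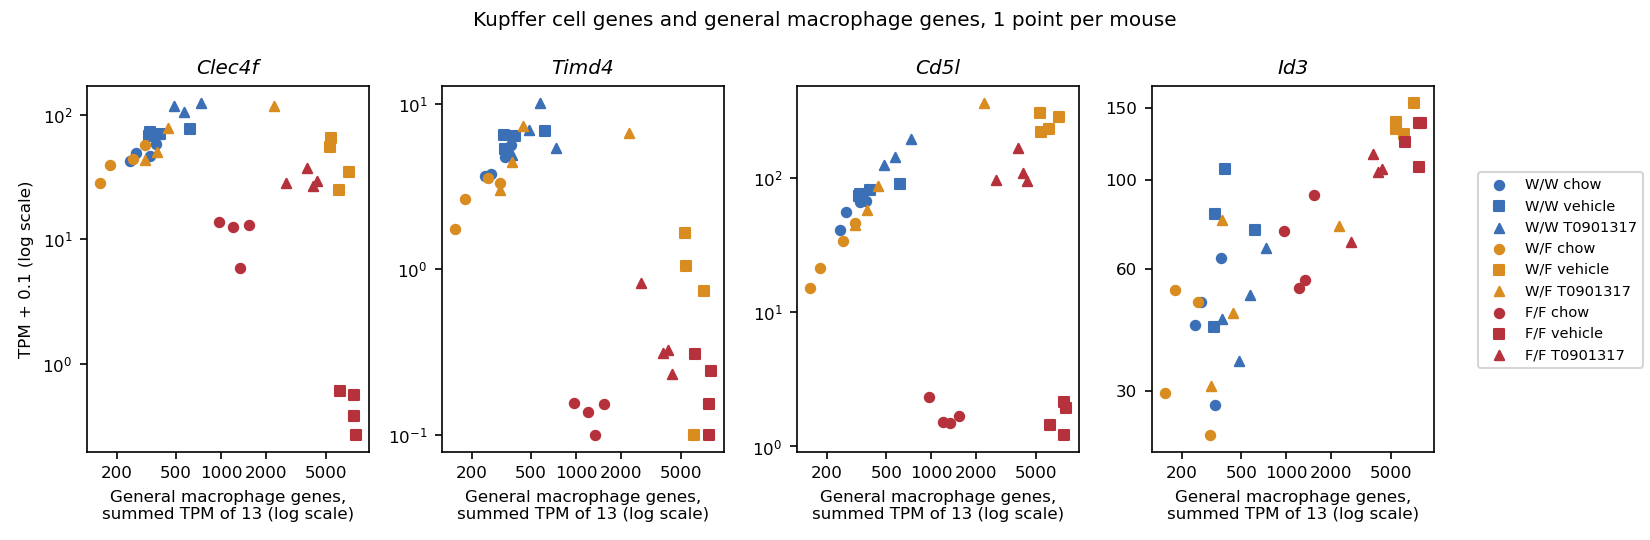
Level of 4 of the genes (TPM + 0.1, log axis) against the summed TPM of the 13 general macrophage genes (log axis), 1 point per mouse, coloured by genotype and shaped by treatment. The F/F vehicle mice combine sums of 6213 to 7965 TPM with the lowest Clec4f, while the W/F vehicle mice at similar sums (5365 to 7118 TPM) keep Clec4f at 25.0 to 64.6 TPM and have the highest Cd5l apart from 1 mouse with T0901317.

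Divided by the general macrophage sum, the resident genes were lower in more groups than their plain levels show. Per 1000 TPM of general macrophage genes, Clec4f stood at 164 ± 18.4 TPM (SD, n = 4) in W/W chow, 183 ± 41.9 in W/W vehicle, 7.80 ± 3.88 in W/F vehicle, 9.29 ± 4.03 in F/F chow, 0.0496 ± 0.0266 in F/F vehicle and 8.37 ± 2.06 in F/F mice with T0901317. W/F chow mice, at 190 ± 19.5, overlapped the W/W chow mice. Cd5l on the same footing was 202 ± 37.8 in W/W vehicle, 44.2 ± 8.86 in W/F vehicle, 0.214 ± 0.0507 in F/F vehicle and 32.2 ± 10.0 in F/F mice with T0901317. W/F vehicle mice, above W/W in plain TPM of Cd5l, were thus below them on this footing, and the F/F mice with T0901317, which overlapped W/W mice in plain TPM, lay below all W/W mice with T0901317 (224 to 267). Id3 per 1000 TPM was 192 ± 77.3 in W/W and 17.2 ± 2.44 in F/F vehicle mice, while its plain means were 76.5 and 126.7 TPM. Many other liver cells also make Id3, so its ratio is not a level per macrophage. These ratios are descriptions, with no test.

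**Figure D4:**
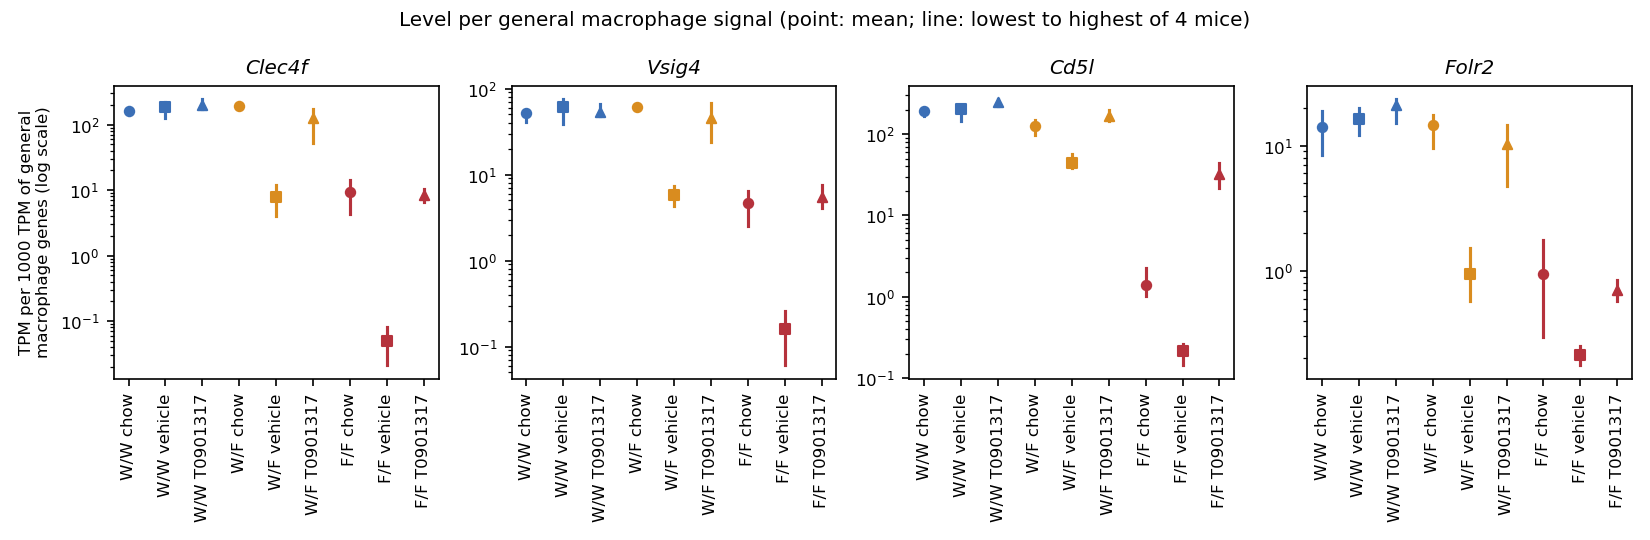
Level of 4 of the genes per 1000 TPM of general macrophage genes (log axis) in each group, with points for the mean and lines from the lowest to the highest of 4 mice. F/F mice with vehicle are lowest in all 4 panels, and W/F vehicle and F/F T0901317 mice lie between them and the W/W mice.

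Of 19 niche signals and receptors, 16 rose and 1 fell in F/F against W/W vehicle mice (12 and 3 after rescaling, median 1.19), and 14 rose and 0 fell in W/F (9 and 4 after rescaling, median 0.82). Of all genes tested, 69.3% were called higher in the F/F comparison and 61.6% in the W/F comparison, so these counts lie near the general share. Csf1, the macrophage growth factor, rose from 4.08 ± 0.53 to 35.1 ± 0.95 TPM in F/F mice (log2 2.84, adjusted p = 5.88e-12), and its receptor Csf1r from 15.8 ± 3.14 to 90.8 ± 7.12 TPM. Bmp10, a bone morphogenetic protein that acts on Kupffer and endothelial cells, fell from 0.73 ± 0.12 to 0.31 ± 0.14 TPM (log2 -0.41, adjusted p = 0.0224). Id2, a relative of Id3, was 324 ± 103 TPM in W/W and 341 ± 30.9 TPM in F/F mice (0.13, adjusted p = 0.554, and lower at -0.60 after rescaling). Of 6 sinusoidal endothelial genes 2 rose and 2 fell (2 and 4 after rescaling).

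Across the 36 libraries the 8 genes formed looser and tighter pairs. The highest Pearson correlations of log2(TPM + 1) were 0.937 for Clec4f and Vsig4, 0.919 for Vsig4 and Cd5l and 0.901 for Timd4 and Cd163, and the lowest was -0.663 for Cd163 and Id3. These libraries share groups, so the values describe group patterns more than mouse-to-mouse variation. Outside the 8, the gene most like Clec4f was Fcna (0.905), followed by Hsd3b3 (0.900) and Cyp2a12 (0.897). Fcna was also the most like Vsig4 (0.826), and Cpb2 was the most like Cd5l (0.844) and Marco (0.676). Slc15a5 (0.912) was the most like Timd4, Tiam2 (0.924) like Cd163, Ccl24 (0.873) like Folr2 and Zfp36l1 (0.882) like Id3.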

How the data were processed

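Per the labels, polyA RNA was prepared from 36 mouse livers (9 groups of 4), and libraries were made by Azenta. Per the submitters' processing notes, the tools were Trimmomatic 0.36, STAR 2.5.2b and featureCounts of Subread 1.5.2, with GRCm38 (mm10). The annotation, filters and strand setting are not given in the sources used here. The authors deposited 1 table of TPM, which sums to 1000000 in each library and is corrected for gene length but not for library composition. Groups and replicate numbers were read from the sample labels, which name no animals; each sample was taken as 1 mouse, and otherwise p-values measure only the spread between samples.

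The log2(TPM + 1) values of 16638 genes that reached 1 TPM in 4 or more samples entered limma (version 3.58.1, R 4.3.3), with 1 mean per group and variances that follow expression, and 22 comparisons were drawn. Within a comparison, Benjamini-Hochberg adjustment ran over all genes, with a threshold of 0.05, and the procedure was tested on simulated data. Read numbers were recovered from the spacing of low TPM and GENCODE M21 exon lengths, and 92.9% to 95.0% of genes under 20 reads fell within 0.1 of a whole number, where chance gives 20%. Intervals on read ratios take in counting error alone, because no molecular identifiers mark which reads are copies. Promoter windows came from RefSeq (GRCm38.p6), and all 8 genes matched.

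The 8 genes, the marker lists and the tests were chosen with earlier results of these data known. Unless stated, genes named from a list are among its 2 with the highest mean TPM and those with the largest and smallest log2 change in F/F against W/W vehicle mice; the 3 genes most like each of the 8 were ranked by Pearson correlation. Python 3.11.15 with pandas 2.3.3 made the descriptive tables. Alternatives tried were a pseudocount of 0.1, a filter of 5 TPM or none, TPM rescaled to a common median of ratios, a replicate block, a fit of only the libraries compared, and leaving out each library.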

Additional observations from a re-analysis of the deposited data

Results flagged for a closer look

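A sample far from the other 3 of its group (Dixon's test at 95%) was seen in 6 of 72 gene and group pairs, where chance gives about 1 in 20. Clec4f was low in F/F chow replicate 4 (5.84 TPM), and Timd4 was high in F/F T0901317 replicate 3 (0.730 TPM). Marco was high in W/W chow replicate 2 (21.1 TPM), W/W vehicle replicate 4 (19.0 TPM) and W/F T0901317 replicate 2 (37.1 TPM). Cd5l was high in the same W/F T0901317 replicate 2 (367 TPM), the library that also held the highest general macrophage sum of its group.

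Of 32 differences between genotypes in a response, 13 were called by limma's test of the difference itself. For the T0901317 response, 58.5% (W/F minus W/W) and 30.4% (F/F minus W/W) of all genes were called. For the diet response the shares were 54.6% (W/F minus W/W) and 46.0% (F/F minus W/W), so 13 of 32 lies within the range of the general shares. The log2 response to T0901317 in W/F minus that in W/W mice was 1.76 for Timd4, 1.13 for Cd163 and -2.13 for Cd5l. In F/F minus W/W mice it was 4.03 for Clec4f, 3.07 for Vsig4, 2.66 for Marco and 4.80 for Cd5l. The response to the diet in W/F minus W/W mice was -1.54 for Timd4, -2.36 for Cd163, 2.74 for Cd5l and 1.18 for Id3. In F/F minus W/W mice it was -3.67 for Clec4f and -2.28 for Vsig4. The Id3 difference was not called after rescaling (0.67) or without W/W vehicle replicate 1 (0.93).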

How the results depend on the processing

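No called value of the 8 genes changed direction under any alternative run, and values that were not called changed sign in 44 fits without 1 library, 2 with the pseudocount of 0.1 and 6 after rescaling. The number of the 8 genes called moved by over 1.5 times in these cases. For the diet with T0901317 against chow in W/F mice it was 2 with the pseudocount of 0.1, 0 with only the libraries compared and 2 to 7 without 1 library, against 4. In W/W mice that comparison gave 5 with the 5 TPM filter and 5 after rescaling, against 3, and 2 to 4 without 1 library. For W/F against W/W mice with T0901317 it was 2 with the 5 TPM filter, 3 after rescaling and 1 to 4 without 1 library, against 1. Cd163, the gene called there in the main fit, did not pass the 5 TPM filter, so those 2 were other genes. Counts with that filter leave Cd163 out in every comparison. For the diet in W/W mice it was 1 after rescaling, 2 with only the libraries compared and 0 to 1 without 1 library, against 0. With only the libraries compared, T0901317 against vehicle gave 1 in W/W (against 0) and 3 in W/F mice (against 5), where Clec4f and Cd5l lost their calls. The cause was not tested. In the other comparisons the number stayed within 1.5 times under every alternative.

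Correlations between the deviations of libraries with the same replicate number ran from -0.174 to 0.297 over 18 comparisons. In 0 of them did every pair pass 0.1. For W/F against W/W with T0901317 they were 0.052 to 0.297, and 3 of 4 pairs passed 0.1. With the replicate block, W/F against W/W with T0901317 had 2 genes called against 1, and no other count moved by over 1.5 times. Id3 lost its rise after rescaling in F/F against W/W with vehicle and with T0901317, in F/F against W/F on chow and with T0901317, in W/F against W/W with vehicle and in the F/F diet comparison. Depth limits Timd4 and Cd163 in F/F mice, where a library held 0 to 14 reads of either.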

Other observations

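Cd207, a lectin best known from Langerhans cells, ran in a different order from the 8 genes. It was highest in F/F chow mice (19.8 ± 4.08 TPM, SD, n = 4), against 2.18 ± 1.25 TPM in W/W chow mice, where it was 2.77 higher on the log2 scale by limma (SE 0.41, adjusted p = 4.06e-06). In F/F vehicle mice Cd207 was 3.42 ± 1.77 TPM and with T0901317 it was 11.7 ± 3.50 TPM. Kcna2 was at 0.0375 ± 0.0202 TPM in F/F chow and 0.0454 ± 0.0278 TPM in F/F vehicle mice. In F/F mice with T0901317 it was at 0.584 ± 0.173 TPM. Timd4 and Cd163, not called for T0901317 against vehicle in F/F mice, had means of 0.101 and 0.0516 TPM with vehicle. With T0901317 their means were 0.325 and 0.0773 TPM. Whether these genes differ in their response was not tested. Cd207 and Kcna2 were picked after their values were seen.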
